A study of Mus musculus with 4 samples.

Results

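The 49 genes described here encode the machinery of mitosis: the kinases and cyclins that drive cells into division, the kinetochore and spindle that move chromosomes, and the factors of chromosome condensation, cytokinesis and mitotic exit. They were chosen by name, with earlier results of these data known. All probe sets that the platform annotation gives a single symbol were read for each. Such a probe set, a group of short oligonucleotides on the array, was found for 48 of the 49 genes, with 104 probe sets in all, among 13320 genes and 24679 single-symbol probe sets in the table. Ccnb1, which encodes cyclin B1, has no signal here because no single-symbol probe set carried its name, and it enters only the promoter counts. Total RNA was measured in 4 mouse cerebellar tumors, 1 array each, all with the genotype Chd7-het on a mixed CD1xC57BL/6 background. They are called tumors 1, 2, 4 and 5 after their sample titles. Chd7 encodes a chromatin remodelling ATPase. The labels name no other allele or agent and give neither the age nor the sex of the mice. The series as used here has no normal tissue and no other genotype, so each tumor was set against the other 3, and nothing here measures an effect of the genotype.

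Mitotic genes are transcribed late in the cell cycle. In resting cells the DREAM complex, in which the MuvB core is joined by a retinoblastoma-family protein, holds many of them silent, and in dividing cells MuvB with B-MYB and FOXM1 switches them on. MuvB reaches these promoters through a short element called the cell cycle genes homology region (CHR), often near CCAAT boxes that the factor NF-Y binds. In the developing cerebellum the cells that divide most are granule cell progenitors, which proliferate in response to Sonic hedgehog. In bulk tissue a lower signal of such a gene can come from fewer dividing cells or from less RNA per cell, and these cannot be told apart.

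Of the 41 members with a promoter window, 26 hold both CHR and CCAAT letters. The promoters of 6 of these 26 are printed, from 250 bases before the annotated start to 50 after it. They come from RefSeq on the GRCm38.p6 build and read 5′ to 3′ on the strand of the gene. Ccnb2 encodes cyclin B2, the B-type cyclin measured here. Aurka, encoding Aurora A kinase, stands for genes with a large difference in tumor 1. Cenpf and Mki67 stand for those highest in tumor 2, and Cdc20 and Ube2c for those not highest there. Capitals mark TTTGAA or TTCGAA (the CHR letters) and CCAAT, on either strand, so that TTCAAA and ATTGG are matches on the other strand. The windows lie at chr9:70421505-70421804 (minus strand), chr2:172370521-172370820 (minus), chr1:189688037-189688336 (minus), chr7:135716330-135716629 (minus), chr4:118437294-118437593 (minus) and chr2:164769679-164769978 (plus).
Ccnb2: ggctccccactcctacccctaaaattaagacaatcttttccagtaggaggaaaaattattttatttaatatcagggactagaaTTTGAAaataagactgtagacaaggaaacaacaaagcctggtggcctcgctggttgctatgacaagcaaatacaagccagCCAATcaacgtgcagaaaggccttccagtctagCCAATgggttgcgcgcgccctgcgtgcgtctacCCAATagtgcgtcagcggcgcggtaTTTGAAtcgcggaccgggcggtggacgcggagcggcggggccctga
Aurka: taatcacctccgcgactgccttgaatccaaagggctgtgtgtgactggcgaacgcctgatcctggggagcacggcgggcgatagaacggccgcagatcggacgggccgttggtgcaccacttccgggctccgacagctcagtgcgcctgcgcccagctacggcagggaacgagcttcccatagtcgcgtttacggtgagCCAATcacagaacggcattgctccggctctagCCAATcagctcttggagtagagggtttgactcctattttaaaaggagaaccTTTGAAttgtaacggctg
Cenpf: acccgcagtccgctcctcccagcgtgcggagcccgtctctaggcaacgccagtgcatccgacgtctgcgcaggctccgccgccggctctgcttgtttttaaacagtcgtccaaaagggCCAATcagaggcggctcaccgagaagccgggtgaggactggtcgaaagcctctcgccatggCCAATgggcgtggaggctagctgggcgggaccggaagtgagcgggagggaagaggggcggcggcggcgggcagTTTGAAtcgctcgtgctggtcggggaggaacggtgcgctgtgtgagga
Mki67: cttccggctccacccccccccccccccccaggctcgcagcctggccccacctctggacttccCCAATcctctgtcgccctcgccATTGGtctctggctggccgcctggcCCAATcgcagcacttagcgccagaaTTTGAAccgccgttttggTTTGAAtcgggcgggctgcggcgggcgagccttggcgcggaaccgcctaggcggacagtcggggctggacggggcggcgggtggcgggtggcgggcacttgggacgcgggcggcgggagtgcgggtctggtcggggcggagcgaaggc
Cdc20: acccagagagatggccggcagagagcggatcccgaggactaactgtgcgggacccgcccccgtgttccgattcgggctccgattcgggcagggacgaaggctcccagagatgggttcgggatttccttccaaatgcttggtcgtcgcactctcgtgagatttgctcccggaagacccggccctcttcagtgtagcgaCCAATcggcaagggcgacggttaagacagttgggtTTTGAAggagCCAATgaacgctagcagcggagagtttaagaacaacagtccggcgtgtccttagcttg
Ube2c: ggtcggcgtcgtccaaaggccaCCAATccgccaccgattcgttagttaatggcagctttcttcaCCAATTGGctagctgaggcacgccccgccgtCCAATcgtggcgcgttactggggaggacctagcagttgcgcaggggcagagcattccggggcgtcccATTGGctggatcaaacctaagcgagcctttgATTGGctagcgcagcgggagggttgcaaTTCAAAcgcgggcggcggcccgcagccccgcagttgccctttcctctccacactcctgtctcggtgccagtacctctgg

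Cenpf and Ccnb2 have TTTGAA just after the start, at positions 3 and 5 counted from the first transcribed base, and Cdc20 has it at position -18. In Ube2c the match lies on the other strand at -29, behind 6 CCAAT matches, a pair of which share bases in the run CCAATTGG. Windows were found for 41 members, Ccnb1 among them, 46 in all because some genes have several starts, and those of Ect2, Prc1 and Bub3 overlap each other. Of the 46 windows, 32 (69.6%) held a CHR match, 36 (78.3%) a CCAAT match and 29 (63%) both. Among the 9028 windows of all genes tested on the array the shares were 13.6%, 38.1% and 5.48%. In 90 windows of further mitotic genes, a list described below, they were 46.7%, 54.4% and 28.9%. In 0 of the members' windows did a CHR match share bases with a CCAAT match. Neither motif was found in the windows of Birc5, Mad2l1, Ncaph, Nuf2, Nusap1, Plk4 and Pttg1, which says only that these letters are not in those 300 bases.

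Values are log2 signals of the MAS5 method, as the authors deposited them. Between 59.1% and 61.3% of probe sets on an array read at or above 5.12, a floor set at the 40th percentile. Of the 13 granule cell progenitor markers, Atoh1, Zic1 and Ptch1 among them, 13 read at or above this floor in at least 1 tumor. The log2 difference between the 3′ and 5′ Gapdh control probe sets bears on RNA quality. It was -0.54 in tumor 5 and between -0.43 and -0.40 in the others. For actin it was 0.152 in tumor 5 and between 0.185 and 0.229 in the others. The 3′ actin control probe set read 11.76 in tumor 1 and 11.67 in tumor 2, against 12.17 and 12.24 in tumors 4 and 5. For Gapdh these levels were 11.14 and 11.06, against 11.57 and 11.47. Their part in the differences below was not tested. A gene entered the test if its brightest probe set averaged at least 5.88, the median over all probe sets, which left 8488 genes and all 48 members with a probe set. Their lowest single value, Foxm1 in tumor 1 at 5.55, was below the filter's limit but above the floor. A gene was called where the limma p, adjusted by Benjamini-Hochberg across the 8488 genes, was under 0.05 and the change reached 2-fold.

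All 48 measured members read lowest in tumor 1. The median difference, tumor 1 minus the mean of the other 3, was -0.43 on the log2 scale, or 0.744 times the signal of the others, and members ranged between -0.98 and -0.20. Over all genes tested the median was -0.04, and tumor 1 lay below each of the other tumors in 31.4% of genes. Among the 2122 brightest genes, which held 26 of the members, the median was -0.09 for all genes and -0.41 for the members. No difference reached 2-fold and 0 of 48 members were called by limma, against 0.271% of genes called lower and 1.15% called higher. At an unadjusted p under 0.05, 26 of 48 members were lower in tumor 1, against 4.69% of all genes. The members' median difference was -0.43 without tumor 2, -0.43 without tumor 4 and -0.46 without tumor 5. Each of these comparisons rests on only 2 other tumors. The gap between tumor 1 and the next lowest tumor had a median of 0.31. It was under 0.1 for Mki67, Cenpe, Ndc80, Kif4, Ect2 and Ncaph, and only 0.0035 for Ect2.

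**Figure D1:**
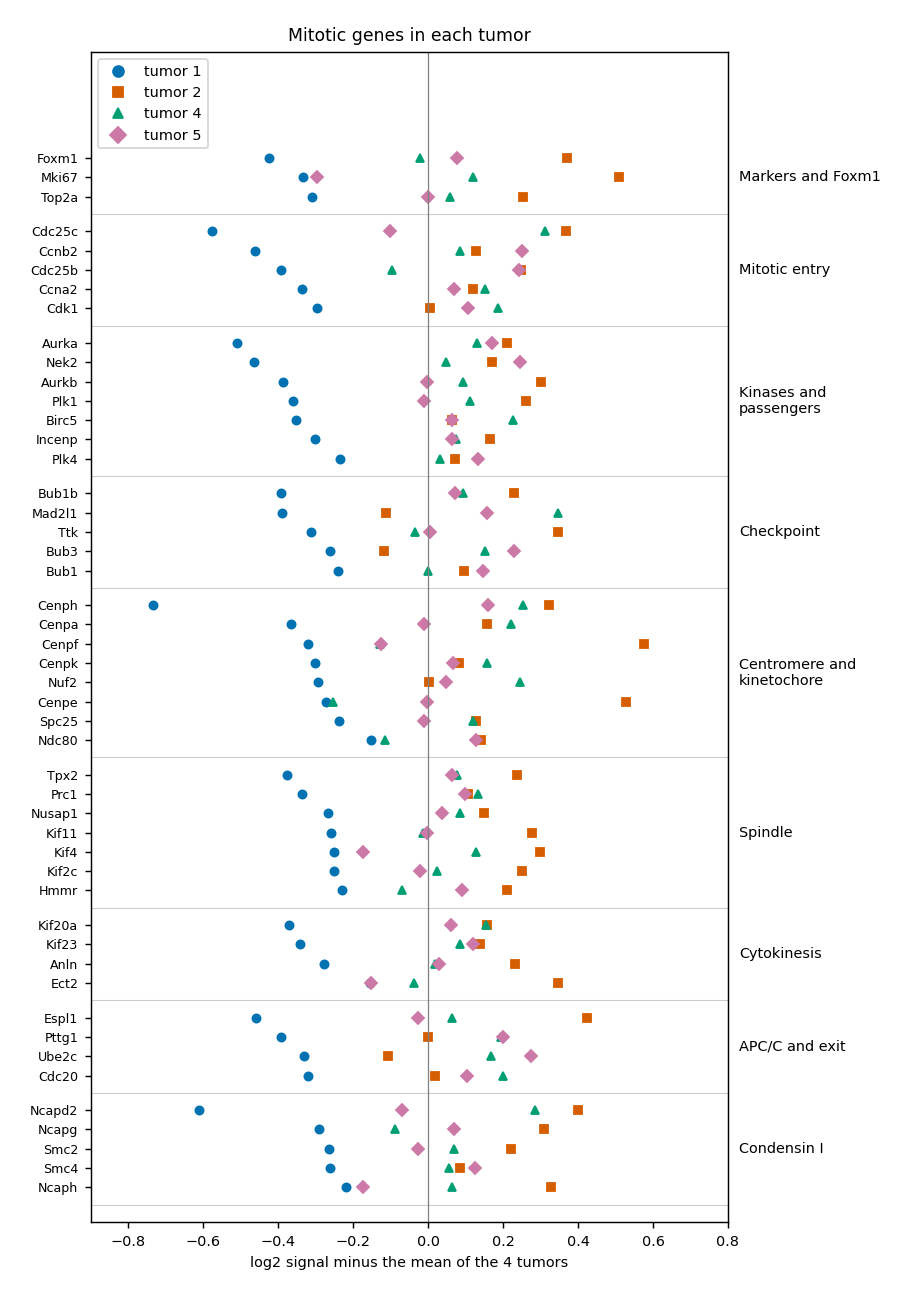
Each row is a gene and each point a tumor (1 array), as the log2 signal minus the mean of the 4 tumors; genes are grouped by role. Tumor 1 (blue circles) is the leftmost point in all 48 rows, hidden behind tumor 5 for Ect2, and tumor 2 (orange squares) is the rightmost in 31.

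The 3 markers and regulators of proliferation shared this order. Mki67, the gene of the proliferation antigen Ki-67, read 9.83 in tumor 1, against 10.67, 10.28 and 9.87 in tumors 2, 4 and 5. Top2a, topoisomerase II alpha, which untangles sister chromatids, read 10.13 in tumor 1, against 10.69, 10.50 and 10.44 in the others. Foxm1, the transcription factor of late cell cycle genes, read 5.55 in tumor 1, against 6.35, 5.95 and 6.05. Tumor 5 lay beside tumor 1 for Mki67 but beside tumor 4 for Top2a and Foxm1. Their differences in tumor 1 were -0.45, -0.41 and -0.57.

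Genes of mitotic entry had the lowest median of the 9 roles in tumor 1, at -0.52 over 5 genes. Cdc25c, a phosphatase that activates CDK1, read 5.75 in tumor 1, against 6.70, 6.64 and 6.23 in tumors 2, 4 and 5. For Ccnb2 the signals were 8.59 in tumor 1 and 9.18, 9.14 and 9.30 in the others, a difference of -0.62 (SE 0.16, limma adjusted p = 0.117). Cdk1, the kinase that the B cyclins activate, read 9.49 in tumor 1, against 9.79, 9.97 and 9.89. The other 3 tumors lay closer to each other than to tumor 1 for Ccnb2 and Cdk1, while for Cdc25c tumor 5 stood about midway. Ccna2, cyclin A2, and Cdc25b, another CDC25 phosphatase, differed by -0.45 and -0.52.

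Among the kinases and their chromosomal passenger partners the median was -0.48 over 7 genes. Aurka, which builds the spindle poles, read 8.17 in tumor 1, against 8.89, 8.81 and 8.85 in tumors 2, 4 and 5, so that the other 3 tumors lay within 0.1 of each other. Its difference of -0.68 (SE 0.15) had an adjusted p of 0.0797 by limma. Nek2, a centrosome kinase, read 8.64 in tumor 1, against 9.27, 9.15 and 9.35. Plk4, which starts centriole duplication and is not a kinase of mitosis itself, had the smallest SD of this role and read 9.26 in tumor 1, against 9.57, 9.53 and 9.63. Plk1 (-0.48), Aurkb (-0.52), Birc5 (-0.47) and Incenp (-0.40) lay between them in tumor 1; the last 3 encode Aurora B and its partners survivin and INCENP.

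The spindle checkpoint, which holds cells in metaphase until all chromosomes are attached, had a median of -0.42 over 5 genes. Mad2l1, the gene of the checkpoint effector MAD2, read 9.34 in tumor 1, against 9.62, 10.07 and 9.88 in tumors 2, 4 and 5. Bub1b, encoding BUBR1, read 7.93 in tumor 1, against 8.56, 8.42 and 8.40. For Bub1, a kinetochore kinase, the signals were 8.89 in tumor 1 and 9.23, 9.13 and 9.28 in the others. Tumor 2 stood about midway between tumors 1 and 5 for Mad2l1, and with tumors 4 and 5 for Bub1b and Bub1. Ttk, the kinase MPS1, and Bub3, a BUB1 partner, differed by -0.42 and -0.35.

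In the centromere and kinetochore the 8 genes ranged most widely, with a median of -0.40. Cenph, a subunit of the constitutive inner kinetochore, had the largest difference of any member. It read 6.00 in tumor 1, against 7.05, 6.98 and 6.89 in tumors 2, 4 and 5, a difference of -0.98 (SE 0.20, limma adjusted p = 0.0586) or 0.507 times the others. Without tumor 5 the difference was -1.02 and Cenph was called (adjusted p = 0.0116), the only member called in any alternative. Ndc80, the microtubule-binding subunit of the outer kinetochore, had the smallest difference, with 7.03 in tumor 1 against 7.32, 7.07 and 7.31. Cenpf and Cenpe, kinetochore genes described further with tumor 2, read 8.62 and 7.61 in tumor 1, with differences of -0.43 and -0.36. Ndc80's partners in the NDC80 complex, Nuf2 (-0.39) and Spc25 (-0.32), were separated from the others more clearly. Cenpa, the histone H3 variant that marks centromeres, and Cenpk differed by -0.49 and -0.40.

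Spindle genes had the median nearest to 0 among the roles, -0.35 over 7 genes. Tpx2, which activates Aurora A on microtubules, read 8.30 in tumor 1, against 8.91, 8.75 and 8.74 in tumors 2, 4 and 5. Kif4, a chromokinesin, read 7.28 in tumor 1, against 7.83, 7.66 and 7.36. For Nusap1, a microtubule-bundling protein, the signals were 9.88 in tumor 1 and 10.30, 10.23 and 10.18 in the others. Tumor 5 read close to tumor 1 for Kif4 alone of these 3. The motor genes Kif11 and Kif2c, the hyaluronan receptor and spindle gene Hmmr and the midzone gene Prc1 differed by between -0.45 and -0.31.

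Cytokinesis genes had a median of -0.41 over 4 genes. Kif20a, a midzone kinesin, read 8.01 in tumor 1, against 8.54, 8.53 and 8.44 in tumors 2, 4 and 5. Anln, the gene of the cleavage furrow scaffold anillin, read 8.99 in tumor 1, against 9.50, 9.29 and 9.30. Ect2, the exchange factor that activates RhoA at the furrow, read 9.42 in tumor 1, against 9.92, 9.54 and 9.43, so that tumors 1 and 5 did not separate. Kif23, a subunit of centralspindlin, differed by -0.46.

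For the exit genes, which act through the anaphase-promoting complex (APC/C) or at anaphase, the median was -0.48 over 4 genes. Espl1, encoding the cohesin-cleaving protease separase, read 6.97 in tumor 1, against 7.86, 7.50 and 7.41 in tumors 2, 4 and 5. Its inhibitor securin is encoded by Pttg1, which read 9.57 in tumor 1, against 9.96, 10.16 and 10.16. Cdc20, the APC/C activator, read 10.35 in tumor 1, against 10.69, 10.87 and 10.78. Tumor 2 was thus the highest for separase and the lowest but one for securin and Cdc20. For securin this depends on the probe set. A dimmer one past the filter read 7.86 in tumor 1, against 8.30, 8.19 and 8.04, with tumor 2 the highest. Ube2c, the ubiquitin-conjugating enzyme of the APC/C, differed by -0.44.

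Condensin I, which compacts chromosomes, had a median of -0.35 over its 5 subunit genes. Ncapd2 stood apart from the other subunits, with 8.14 in tumor 1 against 9.15, 9.03 and 8.68 in tumors 2, 4 and 5 (difference -0.82, SE 0.20, limma adjusted p = 0.110). Without tumor 5 its difference was -0.95 with an adjusted p of 0.0050, under 2-fold. Ncapg read 7.63 in tumor 1, against 8.23, 7.83 and 7.99. Smc4, an ATPase subunit, read 10.20 in tumor 1, against 10.54, 10.52 and 10.59. The other ATPase subunit Smc2 and the kleisin Ncaph differed by -0.35 and -0.29.

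Tumor 1 was also lowest in most further probe sets of the same genes. Of the 31 that passed the filter but did not stand for their gene, 29 read lowest in tumor 1, and 22 genes had more than 1 probe set past the filter. In 0 of these 22 did the probe sets lie on different sides in tumor 1. The exceptions for the lowest tumor were a dimmer probe set of Smc2, with 7.92 in tumor 1 against 8.85, 8.46 and 7.86 in tumors 2, 4 and 5, and one of Cenpe, with 6.91 in tumor 1 against 7.90, 6.94 and 6.77. In both, tumor 5 read lowest. Of the 25 probe sets below the filter, 14 read lowest in tumor 1, but 14 of the 25 were at or above the floor in no tumor, so no order is read from them.

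Other mitotic genes and replication genes lay on the same side in tumor 1. A list of 95 further mitotic genes (kinetochore, spindle, cytokinesis, kinase, APC/C and MuvB genes) held 87 past the filter, of which 81 were lower in tumor 1 than the mean of the others and 67 lowest of all. Their median was -0.33, and 0 were called in either direction by limma, while 33 were lower and 1 (Zwint) higher at an unadjusted p under 0.05, against 4.69% and 6.52% of all genes. Farthest from 0 were the kinesin genes Kif18b at -0.80 (adjusted p = 0.0760) and Kifc1 at -0.71 (0.0797), and of Zwilch, a kinetochore gene, at -0.68 (0.171). The 6 MuvB and DREAM genes past the filter had a median of -0.19, with Mybl2, which encodes B-MYB, at -0.37. Zwint, a kinetochore gene named after its values were seen, was one of the 6 on the higher side, with 9.30 in tumor 1 against 8.70, 8.98 and 8.83 in tumors 2, 4 and 5. Of 33 DNA replication genes, 33 were lower in tumor 1 and 32 lowest, with a median of -0.43 and 0 called, and 18 at an unadjusted p under 0.05. Mcm2, a subunit of the replicative helicase, was at -0.76, the polymerase gene Pole at -0.74 and the thymidine kinase gene Tk1 at -0.73.

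Markers of differentiated neurons read higher in the same tumor. By limma 10 of them were called higher, against 1.15% of all genes: Syt1, Snap25, Syp, Calb2, Chn2, Calb1, Pcp4, Gad1, Car8 and Pvalb. In the glial and vascular lists, 3 oligodendrocyte, 2 astrocyte and 1 endothelial or mural marker were called higher. There 1 microglia marker was called lower, against 0.271% of all genes. Of the 7 mature neuron markers past the filter, 7 read higher in tumor 1 than in each other tumor, as did 1988 of the 8488 genes tested. All 12 listed had a summed linear signal of 7272 in tumor 1, against 2827 to 3170 in the others. Grin2c and Slc17a7 lay below the floor in every tumor. Of the 5 Purkinje and inhibitory neuron markers past the filter, 5 were also highest there. The 8 measured ones summed to 3895 in tumor 1, against 286.4 to 562.9, with Gad2 below the floor throughout. Oligodendrocyte markers were split: 7 of 10 were highest in tumor 1 (4 of the 7 past the filter), with a sum of 6651, against 2458 to 3406. Sox10, Olig1 and Olig2 were lowest there. Of 10 astrocyte markers 6 were highest in tumor 1 and 1 lowest, with a sum of 7896, against 6260 to 7308. Microglia markers summed to 4207 in tumor 1, against 5091 to 7363, and 8 of 12 were lowest there. For the granule cell progenitor markers the sum was 16970 in tumor 1, against 17220 to 18290. That list was split too: 8 of 13 were lowest in tumor 1 and 3 highest, among them Pax6, which was called higher by limma (difference 1.26, adjusted p = 0.0309). Endothelial and mural markers summed to 904 in tumor 1, against 449.2 to 576.9, with Cdh5, Flt1 and Kdr below the floor throughout. The part of these cells in the mitotic differences was not tested.

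**Figure D2:**
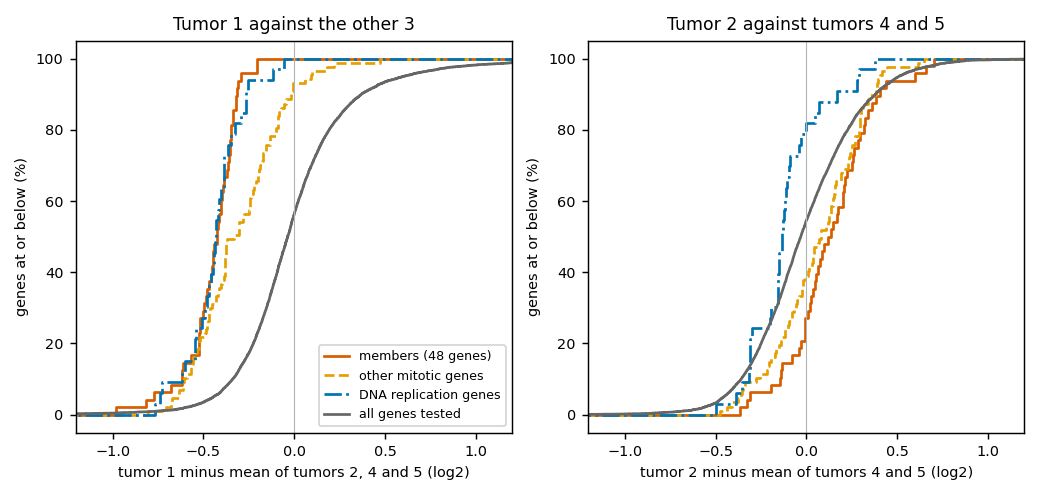
Cumulative share of genes (%) against the log2 difference of tumor 1 from the mean of the other 3 (left) and of tumor 2 from the mean of tumors 4 and 5 (right), for the members, the other mitotic genes, DNA replication genes and all 8488 genes. The members and replication genes run together on the left, with medians of -0.43 each, and lie on opposite sides of all genes on the right, with medians of 0.13 and -0.13.

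Tumor 2 read highest in 31 of 48 members, against 26.4% of all genes. Set against the other 3 tumors, the median difference was 0.28 over the members and -0.02 over all genes. By limma 0 members were called in tumor 2 and 0% of genes, with a smallest adjusted p of 0.129 over all genes. At an unadjusted p under 0.05, 6 members were higher (Mki67, Ttk, Cenpe, Cenpf, Ect2 and Ncaph), against 3.52% of genes. Since tumor 1 is among the tumors compared, tumor 2 was also set against tumors 4 and 5 alone. It lay above both in 31 members (35.5% of all genes), below both in 8 (43.4%) and between them in 9, with a median of 0.13, against -0.03 over all genes. In the limma fit without tumor 1, 8 members were higher at an unadjusted p under 0.05 and 3 lower, against 9.63% and 11.9% of genes. The 3 lower members were Bub3, Mad2l1 and Ube2c.

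Members differed among themselves in this comparison, and the medians of the roles ranged between -0.17 and 0.34, a spread that was not tested. Cenpf, a large kinetochore and nuclear matrix protein gene, read 9.51 in tumor 2, against 8.81 in tumor 4 and 8.81 in tumor 5. The difference of 0.70 (SE 0.12) had a limma adjusted p of 0.0200 without tumor 1, where 1.23% of genes were higher at an adjusted p under 0.05, and it did not reach 2-fold. Cenpe, the gene of the kinetochore motor CENP-E, read 8.41 in tumor 2, against 7.63 in tumor 4 and 7.88 in tumor 5 (difference 0.66, SE 0.16, adjusted p = 0.0584). These are the members that stood farthest above tumors 4 and 5, while other kinetochore genes lay near them: Cenpa at 0.05, Cenph at 0.12, Ndc80 at 0.13, Spc25 at 0.07, Cenpk at -0.03 and Nuf2 at -0.14. Mki67 differed by 0.60 (SE 0.15, adjusted p = 0.0612) and Ect2 by 0.44 (SE 0.11, adjusted p = 0.0679).

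At the other end, Mad2l1 read 9.62 in tumor 2, against 10.07 in tumor 4 and 9.88 in tumor 5, and Ube2c, named here after its values were seen, 10.33 in tumor 2, against 10.60 and 10.71. Their differences of -0.36 (SE 0.12) and -0.33 (SE 0.10) had limma adjusted p-values of 0.114 and 0.0987 without tumor 1. Bub3, named for the same reason, differed by -0.31. The exit genes had the lowest median of the roles, -0.17, although Espl1 was at 0.41, and the role of markers and Foxm1 the highest, 0.34. The exit median depends on the brightest probe set of Pttg1, at -0.20, while another of its probe sets past the filter was at 0.18. Condensin I had a median of 0.29 and the spindle genes 0.20. Entry genes (0.01), checkpoint genes (0.02), kinases (0.06), centromere genes (0.10) and cytokinesis genes (0.13) lay between. Differences between roles were not tested. Of the exit genes, Cdc20, Ube2c and Pttg1 averaged 10.67, 10.44 and 9.96 over the 4 tumors, and Espl1 7.43. Set against the other 3 tumors, tumor 2 had a member median of 0.49 in the 2122 dimmest genes (3 members). In the 2122 brightest (26 members) the members' median was 0.17, and that of all those genes -0.07. The part of signal level in the order of roles was not tested. Between tumors 2, 4 and 5, microglia markers summed to 5091 in tumor 2, against 7363 in tumor 4 and 5483 in tumor 5. Choroid plexus markers summed to 166.4 in tumor 2, against 154.8 and 5186, and their part was not tested.

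**Figure D3:**
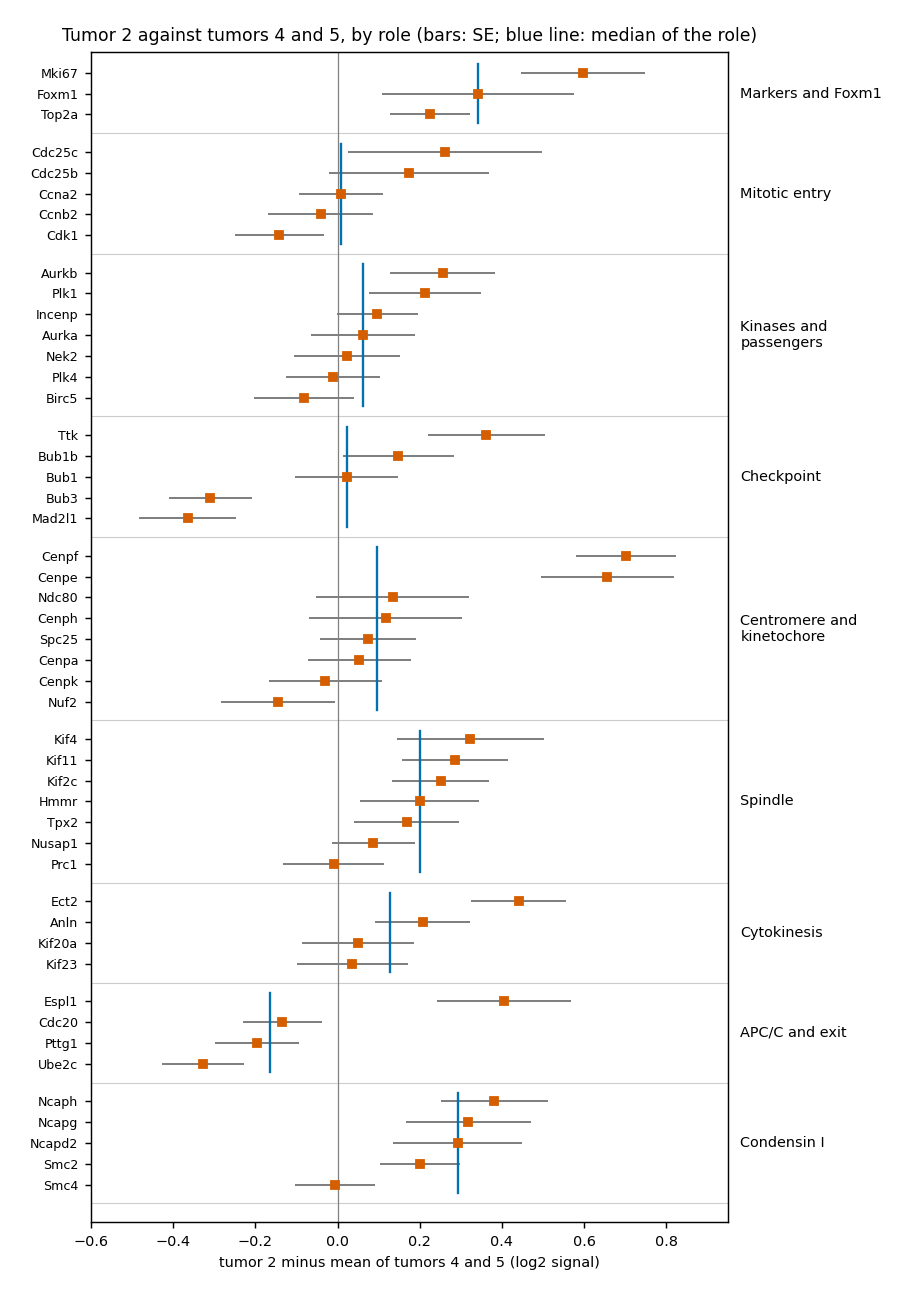
Each point is a member, as the log2 signal of tumor 2 minus the mean of tumors 4 and 5, with the SE of the limma fit without tumor 1; the blue line is the median of the role. Cenpf (0.70), Cenpe (0.66) and Mki67 (0.60) stand farthest to the right, and Mad2l1 (-0.36), Ube2c (-0.33) and Bub3 (-0.31) farthest to the left.

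The further mitotic genes lay on the members' side of this comparison and the replication genes on the other. Of the 87 further mitotic genes, 45 were higher in tumor 2 than in both tumors 4 and 5 and 29 lower than both, with a median of 0.08. Of the 33 replication genes, 5 were higher than both and 25 lower than both, with a median of -0.13. The members thus separated from replication genes between tumors 2, 4 and 5, while both lay at -0.43 in tumor 1; this difference between lists was not tested. Over the 26 members with a CHR and a CCAAT match, the median difference was 0.19 in tumor 2 against tumors 4 and 5, and -0.43 in tumor 1. For 3 members with CHR alone the medians were 0.21 and -0.34, and for 4 measured members with CCAAT alone 0.07 and -0.51. The 7 with neither had -0.08 and -0.39, and the 8 without a window 0.13 and -0.50. Among those with neither, Ncaph, Plk4 and Pttg1 had probe sets past the filter on both sides of the mean of tumors 4 and 5. So did Prc1 among those with both motifs, and Ccna2 and Smc4 among those without a window. Differences between these groups were not tested.

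The size of the tumor 2 difference varied between probe sets of the same gene. Of the 22 members with several probe sets past the filter, 6 (Ccna2, Plk4, Prc1, Pttg1, Smc4 and Ncaph) had them on both sides of the mean of tumors 4 and 5. Prc1 is an example: its brighter probe set read 8.99 in tumor 2, against 9.01 and 8.98 in tumors 4 and 5, and the other read 9.04 in tumor 2, against 8.70 and 8.43. For Incenp the brightest probe set differed by 0.10 and another by 0.51, and for Smc2 the range over 4 probe sets was 0.20 to 0.72. Probe sets that stood for their gene had a median difference of 0.13 and further ones past the filter 0.25, against -0.01 over all single-symbol probe sets past the filter. Of the further ones, 25 of 31 read highest in tumor 2, against 28.2%. The part of signal level in these differences was not tested. The 25 below the filter are not compared.

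**Figure D4:**
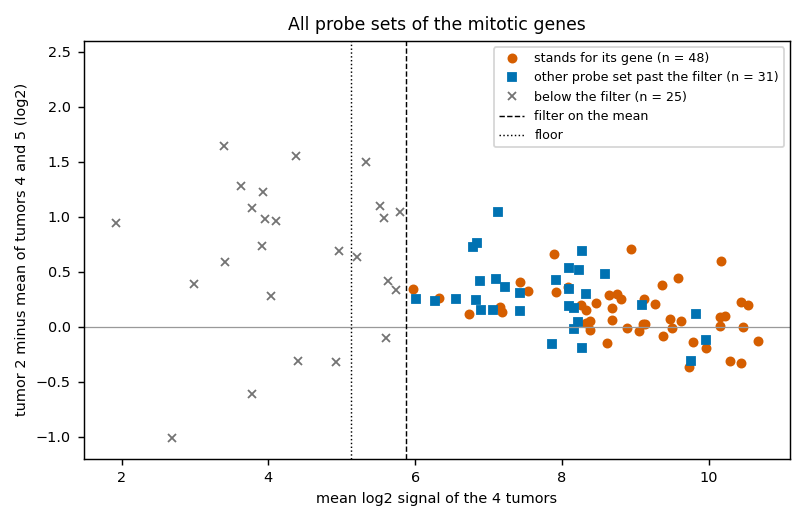
Every point is 1 of the 104 probe sets of the members, with its mean log2 signal over the 4 tumors on the x axis and its tumor 2 signal minus the mean of tumors 4 and 5 on the y axis. The 48 that stand for their gene (circles) lie around a median of 0.13 and the 31 others past the filter (squares) around 0.25; of the 25 below the filter (crosses), 14 are at or above the floor in no tumor.

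Tumors 4 and 5 had similar medians over the members, although single members differed between them. Mki67 read 10.28 in tumor 4 and 9.87 in tumor 5, and Ncapd2 9.03 and 8.68. Tumor 4 read highest in 9 of 48 members (19.1% of all genes) and tumor 5 in 8 (31.0%). The median differences from the other 3 tumors were 0.11 in tumor 4 and 0.08 in tumor 5, against 0.00 and 0.04 over all genes. By limma 0 members and 0% of genes were called in either tumor, and 0 members had an unadjusted p under 0.05, against 0.542% of genes in tumor 4 and 3.57% in tumor 5. Averaged over the 48 members, the deviation from the mean of the 4 tumors was -0.34 ± 0.11 in tumor 1, 0.20 ± 0.16 in tumor 2, 0.09 ± 0.12 in tumor 4 and 0.05 ± 0.12 in tumor 5 (SD over members, which are not replicates). The SD over the 4 tumors had a median of 0.25 over the members and ranged between 0.15 (Ndc80) and 0.49 (Cenph), against a median of 0.17 over all genes, 0.22 over the further mitotic genes and 0.24 over the replication genes.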

How the data were processed

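Total RNA of 4 Chd7-het cerebellar tumors was measured on 1 array each. The values are log2 signals that the authors deposited, made with MAS5 per the submitters' processing notes. No source used here states the MAS5 version or scaling target. With 4 arrays, precision is limited throughout.

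Names came from the platform annotation, updated by gene identifier through RefSeq (GRCm38.p6), and probe sets with several symbols were not used. For the tests, signals were raised to a floor of 5.12 (the median over arrays of the 40th percentile). Probe sets needed a mean of 5.88 (the 50th percentile of means), and the brightest represented its gene. Printed levels are as deposited. Every tumor was compared with the remaining 3 by limma 3.58.1 under R 4.3.3 (lmFit, eBayes with an intensity trend), after a check on simulated data. The lone tumor is assumed to vary like the others. Each p-value sets the difference of the lone tumor against the spread between the other tumors, moderated over all genes. The 4 fits share tumors, and the p-values concern these samples only. Alternatives covered normalization, floor, filter, choice of probe set, variance prior and each tumor left out. The members and lists were chosen with earlier results of these data known. Full values are given for the 10 members with the largest SD and for the 2 largest and the smallest SD in each role. Of the further mitotic and the replication genes, of which none was called, the 3 with the largest difference in tumor 1 are named. Promoter windows came from a RefSeq table, without an entry for Aurkb, Ccna2, Cdc25c, Foxm1, Incenp, Kif20a, Smc4 and Tpx2.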

Additional observations from a re-analysis of the deposited data

Results flagged for a closer look

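In 5 of 48 members, tumor 1 lay so far below the other 3 that the gap to the nearest, as a share of the whole range, exceeded the 95% limit of Dixon's test for 4 samples. Ccna2 read 9.82 in tumor 1 with the others between 10.22 and 10.31 (gap 0.83 of the range), Aurka 8.17 (0.887), Cenph 6.00 (0.845), Prc1 8.54 (0.928) and Kif23 7.99 (0.887). All 5 are low values in tumor 1, in the probe set that stands for the gene. Ccna2, Prc1 and Kif23 have a second probe set past the filter, which was not put to this test. That of Prc1 read 8.18 in tumor 1, against 9.04, 8.70 and 8.43 in tumors 2, 4 and 5. For Kif23 it read 6.58, against 7.26, 6.85 and 6.85, and for Ccna2 9.54, against 10.02, 10.11 and 10.17. In Prc1 and Kif23 the next lowest tumor thus lay closer to tumor 1 than to tumor 2. Chance gives about 1 such flag in 20 genes, and 10.4% of the members had one, against 5.28% of all genes tested.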

How the results depend on the processing

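The members' median differences kept their direction in tumors 1 and 2 under all 10 alternatives that give one. In tumor 1 the median lay between -0.46 and -0.43 with each of the other tumors left out and between -0.44 and -0.40 otherwise, and 0 measured members lay on the higher side in any of these settings. In tumor 2 the range was 0.13 to 0.36 with a tumor left out, lowest without tumor 1, and 0.22 to 0.32 otherwise. Those of tumor 4 (-0.04 to 0.23) and tumor 5 (-0.09 to 0.17) changed sign without tumor 1. No member was called in any tumor, except Cenph in tumor 1 without tumor 5, so that the count there lay between 0 and 1 with a tumor left out. Members at an adjusted p under 0.05 in tumor 1, all lower, were Aurka without the filter (0.0454), Cenph without the intensity trend (0.0445), 12 members without tumor 2 (lowest Pttg1, 0.0152) and Cdc25c (0.0301), Cenph and Ncapd2 without tumor 5. Without tumor 4 there were 0.

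Counts over all genes moved more. In tumor 1, 121 genes were called, with 57 for the floor at the 50th percentile, 24 for the filter at the 75th percentile, where fewer genes were tested, and between 175 and 207 with a tumor left out. In tumors 2, 4 and 5 the count was 0, with 1, 5 and 6 when no filter was used and 1 in tumor 2 for the filter at the 75th percentile. With a tumor left out they were 0 to 29, 1 to 7 and 1 to 47, the highest each without tumor 1. No paired analysis was possible because the labels give 1 group only.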
